A study of Mus musculus with 11 samples.

Results

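miR-142 and miR-155 are microRNAs (miRNAs) known above all from blood cells, and their levels were followed here in mouse embryonic stem (mES) cells with and without Trim71, an RNA-binding protein of early embryonic cells. They were taken as every row of the processed miRNA table whose name carries the exact hairpin number of miR-142 or miR-155. This gave 4 of the 592 miRNAs of the table, namely mmu-miR-142-3p, mmu-miR-142-5p, mmu-miR-155-3p and mmu-miR-155-5p, which are the 2 arms of each of 2 hairpins. The members were selected on their numbers, but with their values in both genotypes already known, so that their genotype differences over the 5 pairs are a description, printed with no p, and counts past thresholds are given only beside those of all miRNAs. Only the difference between the clones was tested, over all miRNAs. The cells were male C57BL/6 mES cells of 2 clones, 1 and E3, in which Trim71 is floxed and the Cre recombinase CreERT2 sits at Rosa26, also in the controls. Trim-/- cells had received 4-hydroxytamoxifen (4-OHT), which activates the recombinase and removes the floxed exon of Trim71, and Trimfl/fl cells are the controls that keep it, treated with the solvent DMSO according to the methods of the study. Trim71 mRNA is no part of these small RNA data, so that its loss was not checked here. Cells were grown without feeder cells in medium conditioned by fibroblasts and were enriched for the surface marker SSEA-1 before RNA was taken. On each of days 1, 5 and 6 (clone 1) and days 3 and 4 (clone E3) there was 1 library of each genotype, which gives 5 pairs, and a Trimfl/fl library of day 2 had no partner. The day is that of the sample labels and is used here only as the number of a replicate. According to the methods, cells were grown for 5 more days after 4-OHT before experiments, and the days are not read as a time course. Whether the pairs came from separate cultures is not said, so that their spread may in part be technical.

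miRNAs are cut from hairpin transcripts, and either arm of the hairpin (5p or 3p) can be loaded into an Argonaute protein, where bases 2 to 8, the seed, find the mRNAs to be repressed. miR-142 is found in nearly all lineages of the blood, with both arms in use. miR-155 is made from the long non-coding RNA Mir155hg, also called BIC, and rises when lymphocytes and macrophages are activated, with the 5p arm as the main product. Neither is counted among the miRNAs that mark mES cells, which are those of the miR-290 to miR-295 and miR-302 clusters.

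The 4 mature sequences are shown because the seed decides what each arm can bind. They are given 5′ to 3′ from RefSeq on GRCm38.p6, with the seed in capitals.

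miR-142-3p: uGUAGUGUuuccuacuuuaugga

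miR-142-5p: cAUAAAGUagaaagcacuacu

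miR-155-5p: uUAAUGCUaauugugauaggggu

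miR-155-3p: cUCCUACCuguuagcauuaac

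The 4 seeds differ from each other, so that the arms do not form a seed family. Of the 592 miRNAs of the table, 468 were matched to a RefSeq mature sequence, and 0 others among them share any of these seeds. miR-142-3p and miR-155-5p are 23 bases long and start with U, and miR-142-5p and miR-155-3p are 21 bases long and start with C. The Mir142 hairpin lies at chr11:87756864-87756927 on the plus strand, within the gene of the long non-coding RNA Mir142hg (chr11:87755577-87757270) but in an exon of 0 of its 1 annotated transcripts, that is in its intron (GENCODE M21). Its 2 arms, miR-142-5p (chr11:87756867-87756887) and miR-142-3p (chr11:87756903-87756925), are 15 bases apart. The Mir155 hairpin lies at chr16:84714140-84714204 on the plus strand, in an exon of both annotated transcripts of Mir155hg (chr16:84703167-84715245), with its arms 16 bases apart.

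The position of miR-142 bears on what its counts hold. RefSeq places another hairpin, Mir142b, on the minus strand over the same bases (chr11:87756841-87756955). Its mature product is shown beside miR-142-3p because it is the exact reverse complement of 20 of the 23 bases of miR-142-3p.

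miR-142b: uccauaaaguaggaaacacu

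miR-142b was not analysed here. Whether reads were counted by strand is not given in the sources used here, so that reads from the 2 strands may have been counted together.

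The deposited values are normalized read counts that the authors had corrected for batch and raised to 1 where they were lower, a floor that 121 values of the 10 paired libraries had reached. How many reads each library had is unknown, and the summed values of 3751519 to 5551715 in Trim-/- and 2742673 to 4332525 in Trimfl/fl libraries are not a depth. For each of the 4 members the same-day libraries summed to 1 constant total (before the floor, for 1 value of miR-142-5p), 2536 for miR-142-3p, 914 for miR-142-5p, 733 for miR-155-5p and 16.6 for miR-155-3p. A Trim-/- value is therefore the mirror image of its partner, each day gives 1 difference, and the SDs of the genotypes are equal apart from floored values. It also follows that a miRNA lower on all 5 days has groups that do not overlap. The unpaired day 2 library held, for each member, the Trimfl/fl mean of the paired days, and it was left out. Levels of the clones cannot be compared, since the total of a pair is the same on every day. Counts are whole reads per mature miRNA of similar length, so that no correction for length was made, but adapters are not joined to all miRNAs with equal ease, and a difference in level between miRNAs includes this.

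In Trimfl/fl cells the members lay at very different levels. miR-142-3p had the highest value, 1689 ± 381 normalized read counts (SD, n = 5), and ranked 105 of 592. miR-142-5p followed at 650.1 ± 213 and rank 167, and miR-155-5p at 460.4 ± 133 and rank 190. These 3 were more abundant than between 67.9% and 82.3% of the miRNAs of the table. miR-155-3p was at 10.2 ± 1.19 (SD, n = 5), rank 561, just above the mean of 10 that a miRNA had to reach in 1 genotype to be kept in the table. In the order of levels, the ranges over libraries of miR-142-3p (1254 to 2138) and miR-142-5p (473 to 957) did not overlap, while that of miR-155-5p (282 to 637) overlapped with miR-142-5p. miR-155-3p (9.03 to 11.6) lay below all 3. The next miRNAs in rank were miR-34a-5p (1699 ± 661, SD, n = 5) above and miR-27a-3p (1688 ± 254) below miR-142-3p, and miR-28a-3p (462 ± 111) above and miR-361-5p (455 ± 100.1) below miR-155-5p. None of these neighbours differed from the member beyond its spread.

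**Figure D1:**
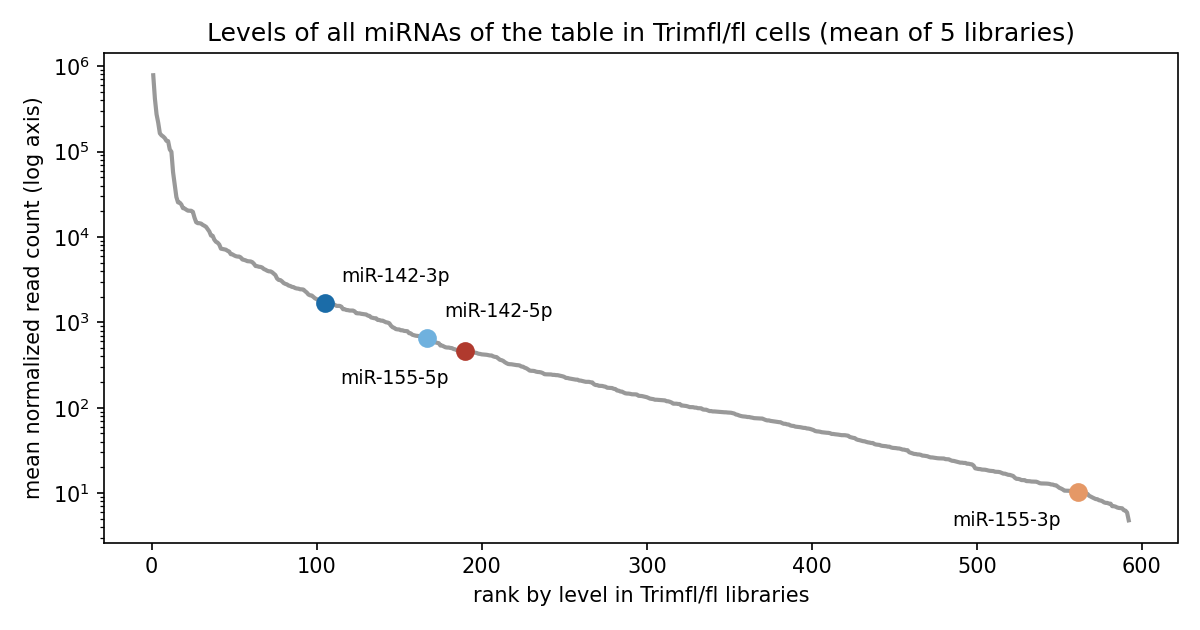
Mean normalized read count of all 592 miRNAs in the 5 paired Trimfl/fl libraries (log axis) against their rank, with the 4 members as points. miR-142-3p, miR-142-5p and miR-155-5p lie in the upper part of the curve, at ranks 105, 167 and 190, and miR-155-3p near its lower end, at rank 561.

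In Trim-/- cells the 4 members had lower means than in Trimfl/fl cells. For miR-155-3p this was in part fixed by the filter of the table, which it passed only through Trimfl/fl cells, since its Trim-/- mean of 6.40 is under 10. The ratio of the group means (Trim-/- over Trimfl/fl) was 0.501 for miR-142-3p, 0.420 for miR-142-5p, 0.593 for miR-155-5p and 0.625 for miR-155-3p. Each pool of cells was measured as a whole, so that fewer cells holding a miRNA and fewer copies per cell cannot be told apart. The differences came mainly from days 1 and 5, as the values of each library show.

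miR-142-3p, the more abundant arm of its hairpin, was at 496, 1008, 1281, 397 and 1051 in the Trim-/- libraries of days 1, 3, 4, 5 and 6. Its Trimfl/fl values on the same days were 2040, 1528, 1254, 2138 and 1485. It was lower in Trim-/- cells on 4 of 5 days, by 4.11-fold on day 1 and by 5.38-fold on day 5, while on day 4 the 2 libraries were nearly equal and the Trim-/- value was the higher, so that the groups overlapped. The log2 fold change, taken on log2(value + 1) in a limma fit with the day as a block, was -1.11 (standard error 0.44).

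miR-142-5p was listed at 1, the floor, in the Trim-/- library of day 1, and at 405, 441, 123 and 394 on days 3, 4, 5 and 6. The Trimfl/fl values were 957, 509, 473, 791 and 520 on days 1, 3, 4, 5 and 6. It was lower in Trim-/- cells on all 5 days, but by only 1.07-fold on day 4, against 6.43-fold on day 5. From the constant total, the floored value stood at -42.5 before the floor, and a negative number is no measured level. The log2 fold change of -2.48 (standard error 1.38) rests on this value, since it was -0.88 when day 1 was left out, and from the ratio of the deposited group means it was -1.25.

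miR-155-5p, the main product of Mir155hg, was at 95.9, 331, 451.0, 207 and 279 in the Trim-/- libraries of days 1, 3, 4, 5 and 6, and at 637, 402, 282, 527 and 454 in the Trimfl/fl libraries. It was lower in Trim-/- cells on 4 of 5 days, most of all on day 1 (6.64-fold), and 1.60-fold higher on day 4, so that the groups overlapped. Its log2 fold change was -0.87 (standard error 0.51), and -0.41 without the pair of day 1.

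miR-155-3p, the rare arm, was at 4.99, 7.27, 7.60, 5.27 and 6.86 in the Trim-/- libraries of days 1, 3, 4, 5 and 6 and at 11.6, 9.37, 9.03, 11.4 and 9.77 in the Trimfl/fl libraries. It was lower on all 5 days, between 1.19-fold on day 4 and 2.33-fold on day 1. Its log2 fold change was -0.61 (standard error 0.26). Adding 1 to values this low understates the change, and the ratio of the group means corresponds to -0.68 on the log2 scale.

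**Figure D2:**
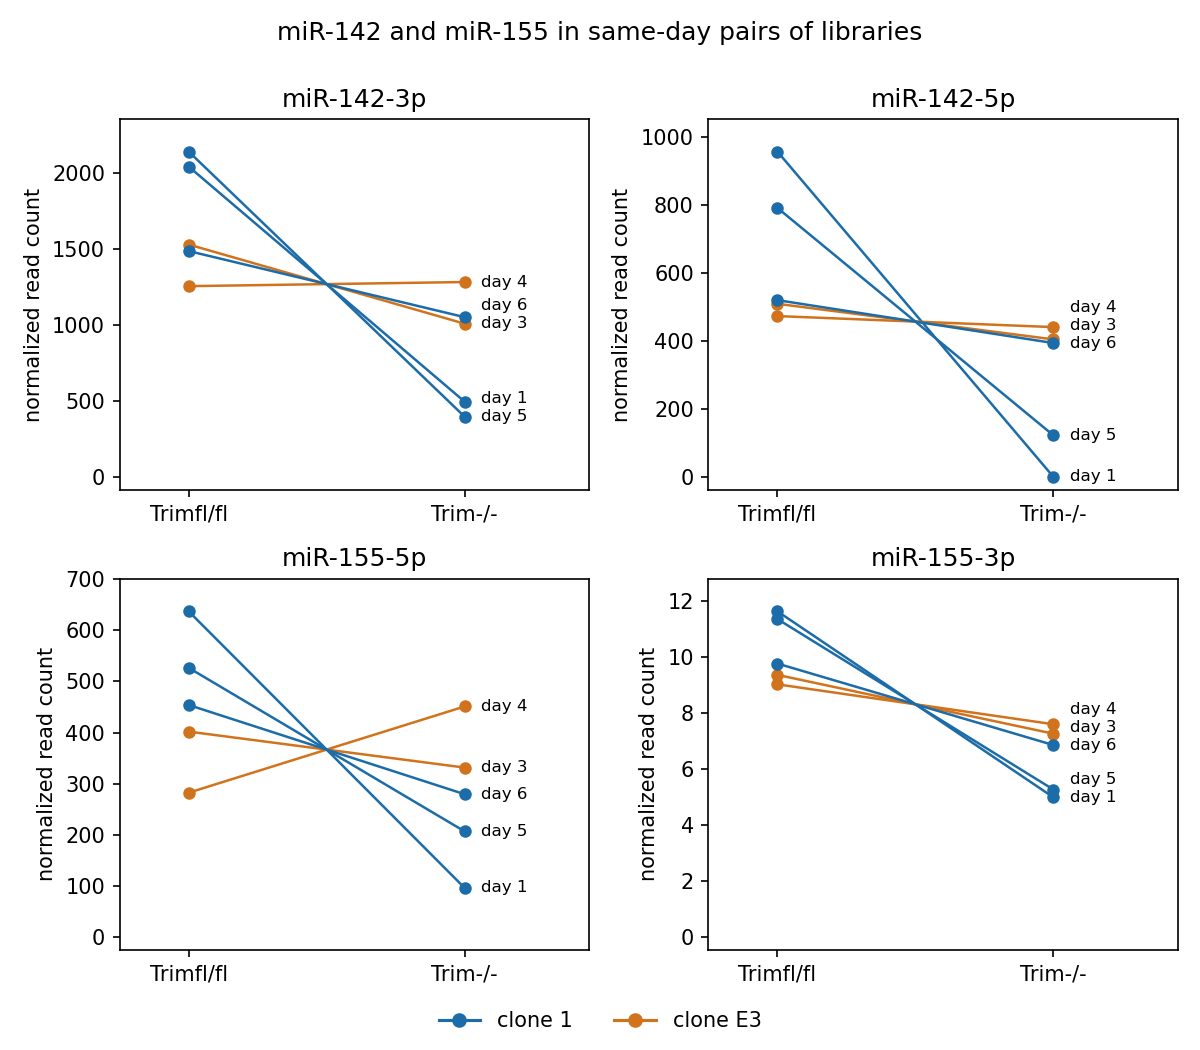
Normalized read count of each member in the same-day Trimfl/fl and Trim-/- libraries, 1 line per day, coloured by clone (n = 5 pairs). The lines of each panel cross at 1 height because the libraries of a day sum to a constant, apart from the floored day 1 of miR-142-5p. Days 1 and 5 of clone 1 have the steepest falls in every panel, and day 4 of clone E3 has the smallest fall or, for miR-142-3p and miR-155-5p, a rise.

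The study used a pair of thresholds, an unadjusted p under 0.05 together with more than 1.5-fold change. By these, 1 of the 4 members was lower, miR-142-3p, where 4.56% of all 592 miRNAs were (27 miRNAs, against 5 upwards). With Benjamini-Hochberg adjustment, 0 of the 592 miRNAs had an adjusted p under 0.05 in limma, while 32 had an unadjusted p under 0.05. With day 4 left out miR-142-3p still passed (-1.39), but with day 1 (-0.87), 3 (-1.23), 5 (-0.78) or 6 (-1.26) left out it did not. It was also outside them on untransformed values (-0.996) and after libraries were divided by their totals (-1.38), which took the median over all 592 miRNAs from 0.03 down to -0.24. In 2 of the 4 members, miR-142-5p and miR-155-3p, every Trim-/- library lay below every Trimfl/fl library, which held for 6.25% of all miRNAs (miR-155-3p being the member kept only through Trimfl/fl cells). Since the members were chosen with this contrast known, nothing is read from these counts. Among all miRNAs, ordered by log2 fold change from the lowest, miR-142-5p was at place 12, which rests on its floored day 1 value, miR-142-3p at 60, miR-155-5p at 74 and miR-155-3p at 111.

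To compare members of different abundance, the same-day difference was divided by the sum of the 2 libraries, which gives -1 where a miRNA is present in Trimfl/fl cells alone, 0 where the libraries are equal and 1 in the opposite case. On day 1 this relative difference was -0.61 for miR-142-3p, -0.998 for miR-142-5p, -0.74 for miR-155-5p and -0.40 for miR-155-3p. On day 5 it was -0.69, -0.73, -0.44 and -0.37 in the same order. All 4 were nearer to 0 on day 6, between -0.24 (miR-155-5p) and -0.14 (miR-142-5p), and on day 3, between -0.21 (miR-142-3p) and -0.10 (miR-155-5p). Day 4 was the only day on which members differed in sign, with 0.23 for miR-155-5p and 0.01 for miR-142-3p against -0.04 for miR-142-5p and -0.09 for miR-155-3p. The root mean square of the 5 relative differences was 0.43 for miR-142-3p, which is larger than in 68.8% of all miRNAs, 0.56 for miR-142-5p (91.0%), 0.41 for miR-155-5p (66.0%) and 0.26 for miR-155-3p (37.3%).

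**Figure D3:**
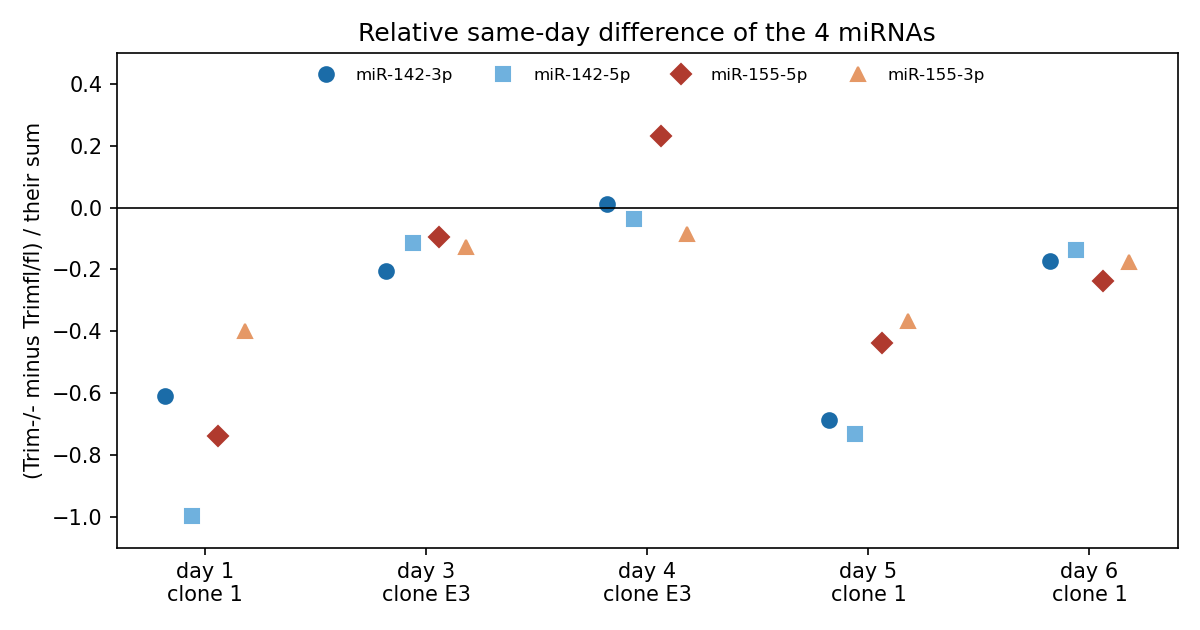
Relative same-day difference, (Trim-/- minus Trimfl/fl) divided by their sum, of the 4 members on each of the 5 days, with the clone below the day. The members lie between -0.998 and -0.37 on days 1 and 5 and between -0.24 and 0.23 on days 3, 4 and 6, and the 2 values above 0 are those of miR-155-5p and miR-142-3p on day 4.

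Days 1 and 5 belong to clone 1, as does day 6, and whether the genotype difference was unlike in the 2 clones was tested as a genotype by clone term over all 592 miRNAs. In clone 1 the mean log2 difference of 3 days was -1.65 for miR-142-3p, -3.99 for miR-142-5p, -1.59 for miR-155-5p and -0.84 for miR-155-3p. In clone E3 the mean of 2 days was -0.28, -0.22, 0.20 and -0.27. The difference between the clones (E3 minus clone 1) was 1.37 for miR-142-3p (standard error 0.78, 95% interval -0.61 to 3.35, adjusted p = 0.630 from limma). It was 1.79 for miR-155-5p (standard error 0.81, 95% interval -0.27 to 3.84, adjusted p = 0.627 from limma). For miR-142-5p, whose day 1 value is at the floor, it was 3.78 (95% interval -2.62 to 10.2, adjusted p = 0.652 from limma), but 1.32 without day 1 and 5.57 without day 6. For miR-155-3p it was 0.56 (95% interval -0.80 to 1.92, adjusted p = 0.683 from limma). An adjusted p under 0.05 was thus reached by 0 of the 4 members, where 0.169% of all miRNAs reached it, and an unadjusted p under 0.05 by 0 members and 33 of the 592 miRNAs. The intervals are wide, and 3 days against 2 leave room for a large difference between clones as well as for none. Clone and day cannot be told apart beyond this, because no day has both clones.

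The arms of the 2 hairpins stood in opposite proportions. In Trimfl/fl cells miR-142-3p was 2.60 times as abundant as miR-142-5p, with a log2 ratio of 3p to 5p of 1.40 ± 0.19 (SD, n = 5) that lay between 1.09 and 1.58. For miR-155 the 5p arm was 45.0 times as abundant as the 3p arm, with a log2 ratio of -5.31 ± 0.31 (SD, n = 5) between -5.66 and -4.82. Among the 179 hairpins with both arms in the table, the arms of miR-142 were less unequal than most, since 24.6% had a smaller absolute log2 ratio, and those of miR-155 more unequal, with 73.7% smaller. The median absolute log2 ratio was 3.04. In Trim-/- cells the ratio of miR-142 was between 1.31 and 1.68 on days 3, 4, 5 and 6 and overlapped the Trimfl/fl range. On day 1 it was 7.96, which comes from the floored miR-142-5p. The ratio of miR-155 lay between -5.72 and -4.02 in Trim-/- cells, highest on day 1, when miR-155-5p was lowest.

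**Figure D4:**
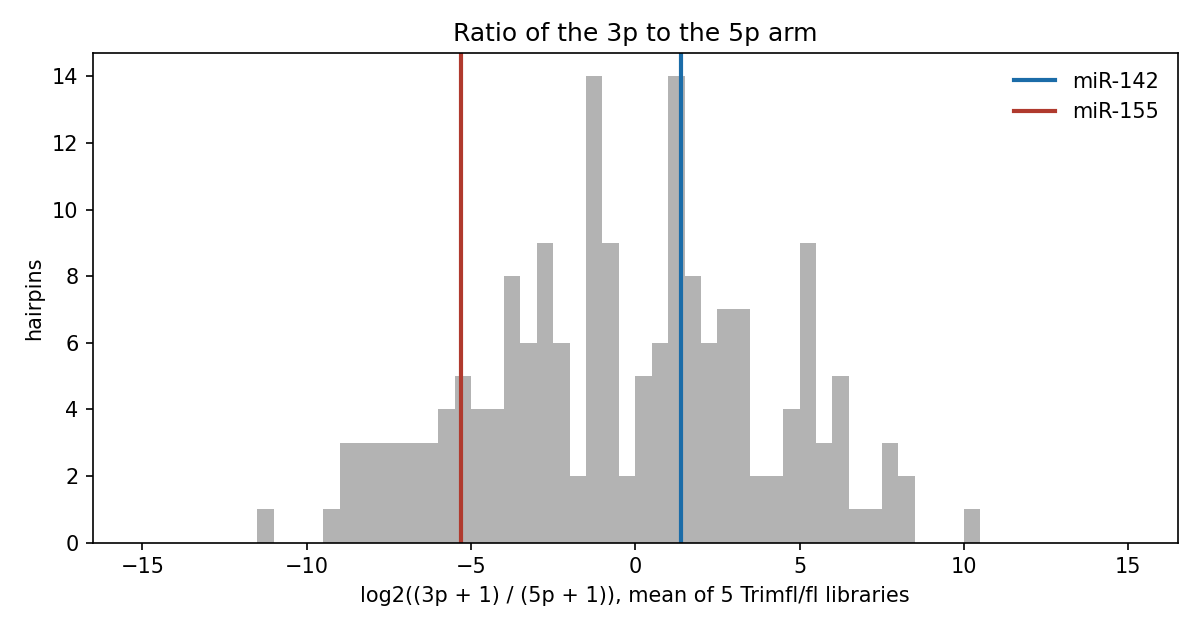
Histogram of the log2 ratio of the 3p to the 5p arm, as the mean of 5 Trimfl/fl libraries, for the 179 hairpins with both arms in the table. The lines mark miR-142 at 1.40, with more 3p, and miR-155 at -5.31, with more 5p.

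The pattern over days was next compared between miRNAs, as the root mean square over the 5 days of the difference between 2 relative differences, which is 0 for the same pattern. This describes 5 points that share libraries, and a small distance is no sign of a shared role. miR-142-3p and miR-142-5p were 0.18 apart and miR-155-3p and miR-155-5p 0.21, against a median of 0.37 between the arms of the 179 hairpins, with 10.1% and 15.1% of them nearer. The 0.18 comes mainly from day 1, when miR-142-5p was at the floor (-0.998, against -0.61 for miR-142-3p). On days 3, 4, 5 and 6 miR-142-5p was at -0.11, -0.04, -0.73 and -0.14. miR-142-3p was at -0.21, 0.01, -0.69 and -0.17 on these days. Among the 591 other miRNAs, miR-155-5p was at place 5 in likeness to miR-142-3p, at a distance of 0.17, ahead of the other arm of miR-142 at place 9. This order rests on the same floored value of miR-142-5p. In the other direction, miR-142-3p was at place 19 in likeness to miR-155-5p. Over all 5 days the pair of less abundant arms was the most unlike, at 0.31, with miR-142-5p at place 173 in likeness to miR-155-3p. In the other direction, miR-155-3p was at place 32 in likeness to miR-142-5p. The 0.31 also comes mainly from the floored day 1 (-0.998, against -0.40 for miR-155-3p), so that no order of the members is read from it.

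The miRNAs most like miR-142-3p were miR-29a-3p (0.13), miR-19b-1-5p (0.14), miR-297a-5p (0.15), miR-6240 (0.16) and miR-155-5p. Most like miR-155-5p were miR-669b-5p (0.05), miR-297a-5p (0.07), miR-19b-1-5p (0.08), miR-291b-3p (0.10) and miR-670-3p (0.11). Most like miR-142-5p were miR-297c-5p (0.10), miR-376a-3p (0.15), miR-29c-3p (0.15), miR-500-3p (0.16) and miR-19b-1-5p (0.16). These distances include the floored day 1 value of miR-142-5p (-0.998), to which miR-297c-5p (-0.993) and miR-376a-3p (-0.992) lay near. Most like miR-155-3p were miR-878-3p (0.07), miR-669o-3p (0.10), miR-669a-3p (0.10), miR-26b-5p (0.12) and miR-302d-3p (0.12). Since they were picked for this pattern, their values are a description: on day 1 the relative difference of miR-669b-5p was -0.77 and that of miR-297a-5p -0.73. miR-669b-5p had 707 normalized read counts in Trimfl/fl and 435 in Trim-/- cells, a log2 fold change of -0.85, near that of miR-155-5p. miR-291b-3p, of the mES cell cluster, had 4211 normalized read counts in Trimfl/fl and 2873 in Trim-/- cells.

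Whether other miRNAs known from blood moved with the members was examined on 11 miRNAs chosen by name. Of these, 4 had a lower and 7 a higher fitted mean in Trim-/- cells, 0 were past the thresholds in either direction, and 0 had groups that do not overlap with the Trim-/- values lower. The filter of the table in part fixed the direction of miR-451a, counted as lower, whose Trim-/- mean of 7.04 is under 10. It did the same for miR-342-5p, counted as higher, whose Trimfl/fl mean was 9.79. The counts by day below include both. The median log2 fold change of the 11 was 0.30, against 0.03 over all 592 miRNAs. With day 5 left out it was 0.04, against -0.02 over all miRNAs, and after division by library totals it was 0.03, against -0.24. All 4 members were below 0 in the fit on all 5 pairs, where 289 of all 592 miRNAs were. Nothing is read from this count, since the members were chosen with this contrast known. The sign of miR-155-3p was also in part fixed by the filter. miR-126a-3p, known from endothelial cells and blood progenitors, was the most abundant, at 5553 ± 607 (SD, n = 5) in Trim-/- and 5164 ± 607 in Trimfl/fl cells. miR-146b-5p, which is induced in inflammatory responses, was at 915 ± 332 and 697 ± 332, and miR-150-5p, known from mature lymphocytes, at 541 ± 84.4 and 442 ± 84.4. On day 1, when all 4 members were lower in Trim-/- cells, 6 of the 11 were lower as well, such as miR-342-3p (165 against 302), and the others were higher, such as miR-150-5p (552 against 432). On days 3, 5 and 6, when the members were also all lower, 6, 3 and 5 of the 11 were lower. On day 4, when 2 of the 4 members were lower, 7 of the 11 were. miR-342-3p was at 209 ± 41.9 and 259 ± 41.9, lower on 4 of 5 days. miR-146a-5p was at 164 ± 33.0 and 110.4 ± 33.0, higher on 4 of 5 days, and miR-147-3p at 131 ± 33.8 and 94.7 ± 33.8. miR-126a-5p, the other arm of its hairpin, lay between 61.7 and 90.9 in Trim-/- and between 82.8 and 112 in Trimfl/fl libraries, lower on 4 of 5 days. None of these 7 differences was past the thresholds. miR-451a, abundant in red blood cells, was near the lower end of the table, between 1 and 9.99 in Trim-/- and between 9.74 and 19.3 in Trimfl/fl libraries. miR-223 and miR-144 were also looked for by name, but they are not among the 592 miRNAs of the table and could not be examined.

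Markers of the cells the cultures could hold gave the following values. The 23 listed miRNAs that mark mES cells made up 55.6% to 58.5% of the summed values in Trimfl/fl and 54.2% to 58.3% in Trim-/- libraries. Their median log2 fold change was -0.12, with 10 higher, 13 lower and 0 past the thresholds. Split by cluster after the values were seen, with no test, of the listed arms of miR-290 to miR-295, 10 of 14 were higher in the fit (median 0.15), and of miR-302 and miR-367, 9 of 9 were lower (median -0.64). miR-290b and miR-292b were not on the list. Their log2 fold changes were -0.11 (miR-290b-3p), 0.36 (miR-290b-5p), 0.34 (miR-292b-3p) and 0.66 (miR-292b-5p). miR-302c-5p was lower on 5 of 5 days, as were 6.25% of all miRNAs, and its log2 fold change of -1.85 (standard error 0.92) includes a Trim-/- value at the floor of 1. The 11 blood-lineage miRNAs above summed to 6082 to 8043 in Trimfl/fl and 6544 to 8505 in Trim-/- libraries, and were lower in Trim-/- cells on 2 of 5 days. Most of this sum was miR-126a-3p (mean 5164 in Trimfl/fl and 5553 in Trim-/- cells), which was itself lower on 2 of 5 days. The 11 miRNAs of fibroblasts summed to 30983 to 84865 in Trimfl/fl and 16394 to 70256 in Trim-/- libraries, where the sum was lower in Trim-/- cells on 1 of 5 days, with 8 higher, 3 lower and 0 past the thresholds. The 6 neural miRNAs (median log2 fold change 0.60) and the 2 of liver and endoderm (0.55) were all higher in the fit, with 0 past the thresholds. By their sums, however, the 2 of liver and endoderm were lower in Trim-/- cells on 3 of 5 days, and the neural miRNAs on 1. The part of other cell types in the differences of miR-142 and miR-155 was not tested.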

How the data were processed

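Small RNA libraries of Trim-/- and Trimfl/fl mES cells were sequenced by the authors. According to the methods and the processing notes, reads were called by the authors with CASAVA 1.8, trimmed, and aligned with Bowtie2 2.2.1 to mm10 with the miRNA entries of miRBase release 20, and counts were normalized with DESeq2 and corrected for batch in Partek 6.6. The deposited signal values are these normalized, batch-corrected read counts, raised to 1 where lower, for miRNAs with a mean of at least 10 in 1 genotype. Raw counts and depth are unknown. In the deposited values the 2 libraries of a day sum to 1 total per miRNA, so that the spread over days holds no variation of that total. The labels name another library kit than the methods, which could not be settled here.

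From these values, log2(value + 1) was fitted with limma 3.58.1 (R 4.3.3) over all 592 miRNAs and the 10 paired libraries, with genotype and day as terms and Benjamini-Hochberg adjustment. The pairing comes from the day in the labels, and same-day libraries also mirrored each other in the values. A genotype by clone term was fitted in the same way. The fit was tested on simulated data. Levels, relative differences and arm ratios were computed with pandas 2.3.3. Sequences are from RefSeq and gene models from GENCODE M21. Besides the members, the miRNAs named are the 5 most alike in pattern to each, those next in level, and the blood-lineage list, of which the 6 with the highest mean over both genotypes are given in full. The members and lists were chosen with earlier results of these data known. Alternatives were the fit without the day block, each day left out, other scalings, pseudocounts of 0.1 and 10, untransformed values, filters on low values, a trend in limma and all 11 libraries. Each clone alone, and the values before the floor, were added after seeing the data.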

Additional observations from a re-analysis of the deposited data

Results flagged for a closer look

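Of 38 sets of 5 values examined, 1 held a value far from the others, where chance gives about 1 in 20. It was the log2 ratio of the 3p to the 5p arm of miR-142 in Trim-/- cells, which was 7.96 on day 1 and between 1.31 and 1.68 on the other days, so that the gap took up 0.944 of the whole range (critical value 0.71). On day 1 miR-142-5p was listed at the floor of 1, while miR-142-3p was at 496.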

How the results depend on the processing

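Over 198 recomputed values, 173 kept their direction and, for counts, ranks and arm ratios, also stayed near the reported value, 23 moved and 2 reversed. In the 2 that reversed, the log2 fold change of miR-155-5p was 0.20 in clone E3 alone, and the median log2 fold change of the other blood-lineage miRNAs was -0.070 in that clone. Without the replicate block of the day, the log2 fold changes of the members were the same (-1.11 for miR-142-3p), miR-155-3p also passed the thresholds, and 42 miRNAs were past them upwards and 59 downwards, against 5 and 27. The counts upwards and downwards were 45 and 71 with all 11 libraries and no block, 2 and 48 after division by library totals, and 14 and 45 in clone 1 alone. Upwards, 8 were past them with a pseudocount of 10, 9 on untransformed values and 8 in clone E3 alone, and downwards 10 with a mean of at least 100. With each day left out in turn, they ranged from 4 to 23 upwards and from 11 to 44 downwards, lowest downwards without day 1 and highest without day 4. In these fits the log2 fold change ranged from -1.39 to -0.78 for miR-142-3p, -3.08 to -0.88 for miR-142-5p, -0.71 to -0.50 for miR-155-3p and -1.26 to -0.41 for miR-155-5p. The clone difference ranged from 0.98 to 1.95 for miR-142-3p, 1.32 to 5.57 for miR-142-5p, 0.44 to 0.75 for miR-155-3p and 1.22 to 2.26 for miR-155-5p. Where clone E3 kept only 1 day, that pair was assumed to vary like the others. By the Trim-/- means the ranks were 144 (miR-142-3p), 229 (miR-142-5p), 228 (miR-155-5p) and 585 (miR-155-3p). The mean log2 arm ratio of miR-142 over the Trim-/- libraries was 2.78, with the floored day 1 (7.96) included, and their median was 1.54. With a pseudocount of 10 the log2 arm ratio of miR-155 was -4.49. Beside the fit without the block, miR-155-3p passed the thresholds without day 4 (-0.71), with all 11 libraries (-0.61) and with a pseudocount of 0.1 (-0.68), and miR-155-5p without day 4 (-1.26), with all 11 libraries (-0.88) and in clone 1 alone (-1.59). miR-142-3p did not pass in clone E3 alone (-0.28). Without the block, the mirrored libraries of a day are counted as separate values. With all 11 libraries, the day 2 library is added as well, which for each member repeats the Trimfl/fl mean. Nothing is therefore read from the larger counts and the added passes in the fits without the block. The causes of these shifts were not tested. The filter of at least 10 in 1 library removed no miRNA. With 5 pairs from 2 clones and unknown depth, values as low as those of miR-155-3p have an error that cannot be stated.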
